A study of Arabidopsis thaliana with 21 samples.

Results

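The cytochrome P450 genes of Arabidopsis thaliana were described across lists of chromatin regions from young plants. A gene was a member if the RefSeq gene table of the TAIR10.1 assembly lists it as nuclear and protein-coding under a systematic P450 symbol, and the 4 abscisic acid hydroxylase genes CYP707A1 to CYP707A4 were left out by the rule. This gave 215 members of 27444 nuclear protein-coding genes, in 39 families and 59 subfamilies, where a family shares the number after CYP and a subfamily also the letter. CYP91A2, which has CYP81F1 as a synonym, was kept under its symbol and so counts as a family of its own. The members were selected on their names, and their patterns were defined by the regions themselves: a gene was assigned to a protein's list when the summit of a region lay in the gene or within 1 kb of it, and to the list of trimethylated histone H3 lysine 27 (H3K27me3) when a region touched the same window. The module was proposed with such assignments known, so counts are given as description with no test, to be read against the same share over all protein-coding genes.

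The series is ChIP-seq, in which chromatin fragments bound by an antibody are sequenced, of 21 samples in 7 groups of 3. FIE was precipitated with anti-HA from plants of the C24 accession that carry an HA-tagged FIE under the FIE promoter (pFIE:FIE-HA) and the fie-11 mutation of the native gene. AZF1 and BPC1 were precipitated with anti-Myc from Col plants with a genomic gAZF1-Myc or gBPC1-Myc transgene, and H3K27me3 from Col plants without one. The controls were unmodified histone H3 from Col for H3K27me3, input chromatin from the gAZF1-Myc line for both Myc-tagged proteins and input from the FIE-HA line for FIE. All plants were 30 h old, untreated and kept at 16 h light and 8 h dark. Because FIE was measured in another accession than the other 3, a difference between its list and theirs cannot be told apart from one between C24 and Col. The deposited lists hold 5006 FIE, 4464 AZF1, 2622 BPC1 and 3940 H3K27me3 regions on the 5 nuclear chromosomes. They carry no replicate columns and no read counts, so no value below has a replicate error and the depth behind it is unknown. They also hold no expression, so the labelled whole-plant tissue could not be checked against marker genes.

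P450 enzymes are haem-containing monooxygenases that insert oxygen into small molecules, and plants use large families of them to make and break down hormones, defence compounds, sterols, pigments and the lipid barriers of their surfaces. Many arose by local duplication, so that related genes lie side by side. FIE is a core subunit of Polycomb repressive complex 2, which places H3K27me3, a mark of repressed genes. AZF1, a C2H2 zinc-finger protein, and BPC1, which binds GA repeats, are DNA-binding factors known for recruiting that complex to its targets.

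H3K27me3 regions met 90 of the 215 P450 genes, or 41.9%, against 27.3% of all protein-coding genes. FIE was assigned to 24 members, or 11.2%, against 9.33% of all genes. AZF1 was assigned to 12 members, or 5.58%, against 9.88%. BPC1 was assigned to 9 members, or 4.19%, against 5.87%. The H3K27me3 share of the members thus lay well above the share of all genes, and the AZF1 share below it. The FIE share lay slightly above and the BPC1 share slightly below, each near the share of all genes. With the gene alone as window, the FIE share was 10.2% against 5.84%. FIE and H3K27me3 together were found at 19 members, or 8.84%, against 6.18% of all genes, and 115 members, or 53.5%, were in none of the lists, against 63.1%. A single member, CYP714A1, was in all 4 lists, which is 0.465% of the members against 1.13% of all genes.

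**Figure D1:**
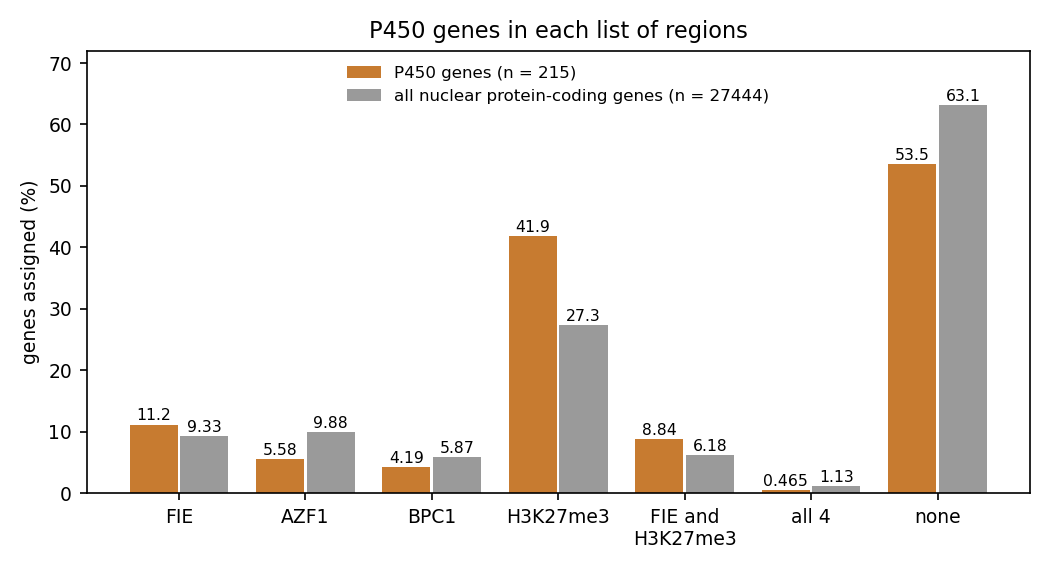
Share of genes assigned to each list, in percent, for the 215 P450 genes (left bar of each pair) and all 27444 nuclear protein-coding genes (right bar). The members exceed all genes by the widest margin for H3K27me3, 41.9% against 27.3%, and lie below them for AZF1 and slightly below for BPC1.

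Of the 90 marked members 66, or 73.3%, had no summit of the 3 proteins in their window, close to the 69.2% of all marked genes. FIE was assigned to 19 of the 90 marked members, or 21.1%, against 22.6% of all marked genes. Read the other way, 19 of the 24 FIE members were marked, or 79.2%, against 66.3% of all FIE genes. Of the 12 AZF1 members 8 were marked, or 66.7%, against 35.2% of all AZF1 genes, and of the 9 BPC1 members 8 were marked, or 88.9%, against 51.9%. Few genes stand behind these last shares. The 34 members with a summit of at least 1 protein are shown in the plot of P450 genes by list.

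**Figure D2:**
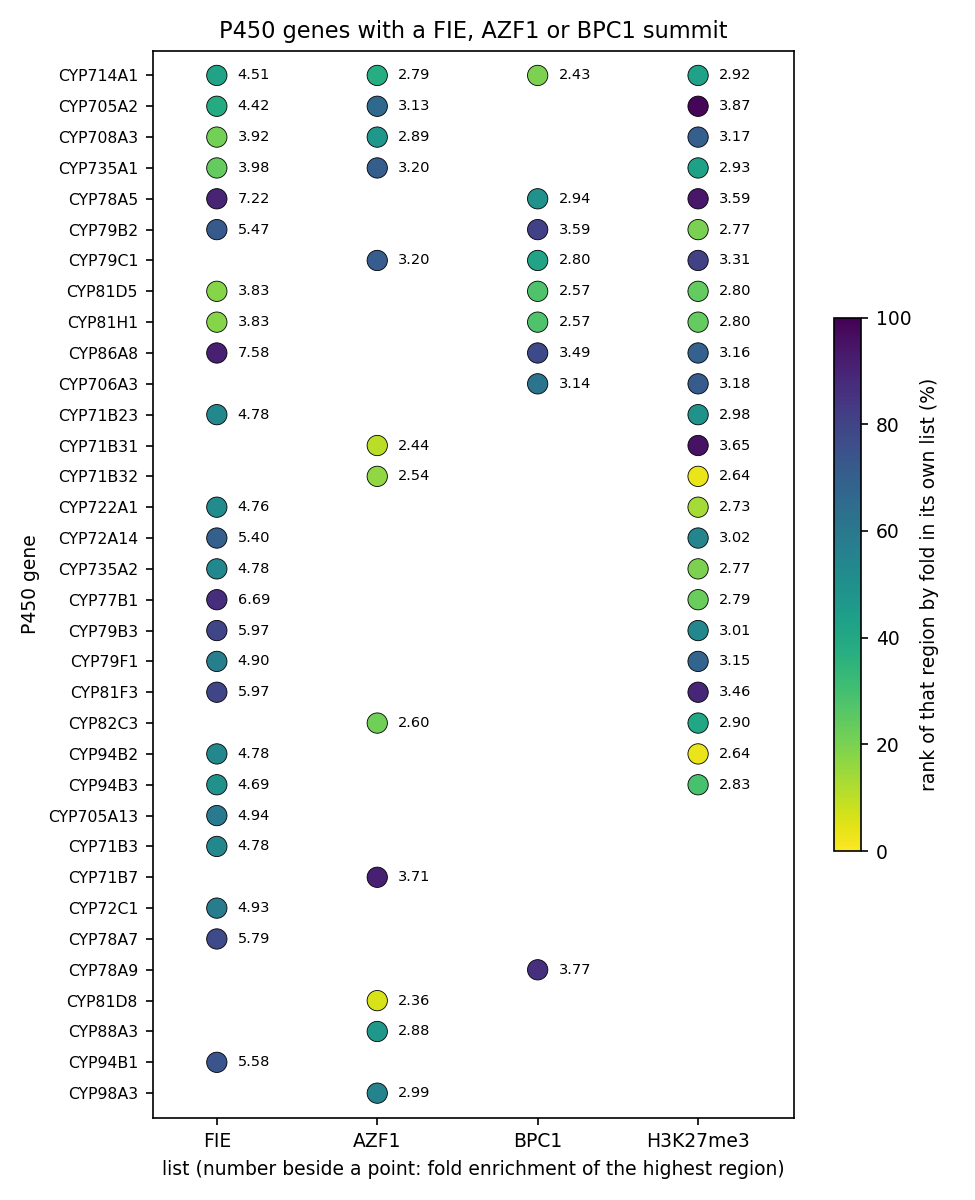
The 34 P450 genes with a FIE, AZF1 or BPC1 summit (rows) and the 4 lists (columns). A point marks an assignment, the number beside it is the fold enrichment of the highest region as the authors' lists give it, and its shade is the rank of that region within its own list in percent. CYP714A1 is the only row with 4 points, and CYP86A8, at 7.58, and CYP78A5, at 7.22, have the highest FIE values.

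Among genes of growth control, the CYP78A subfamily had the most varied pattern. CYP78A5 (KLUH), which promotes organ growth, had 3 FIE regions, of which the highest lay at 1:4703282-4704192 with a fold enrichment over control of 7.22, at 89.9% of the FIE list ranked by fold. Its BPC1 region, at 1:4703376-4703596 with a fold of 2.94, fell inside that FIE region, and both fell inside a 5750-bp H3K27me3 region with a fold of 3.59 that covered the whole gene. The other 5 genes did not share this pattern. CYP78A7, a close relative that overlaps CYP78A5 in function, had a FIE region with a fold of 5.79 and no H3K27me3. CYP78A9, which affects fruit and seed size, had the highest BPC1 value of any member, a fold of 3.77 at 86.2% of that list, and was in no other list. CYP78A10 was marked with a fold of 2.72, and CYP78A6 and CYP78A8 were in none of the lists. The subfamily thus counted 2 FIE, 2 BPC1 and 2 H3K27me3 genes of 6, with only CYP78A5 in more than 1 list.

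The hormone genes with FIE included enzymes that inactivate or modify a hormone. All 3 CYP94B genes were in the FIE list: CYP94B1 with a highest fold of 5.58, CYP94B2 with 4.78 and CYP94B3 with 4.69. The −log10 q-value, the significance of a region, was 25.6 at CYP94B1, 10.8 at CYP94B2 and 17.6 at CYP94B3. The lowest in the lists is 10. FIE regions of CYP735A2 and CYP71B23 had the same fold and q-value as that of CYP94B2, and MRN1 and TT7 the same fold. These equal values do not rank the genes. CYP94B1 and CYP94B3 hydroxylate the active jasmonate, jasmonoyl-isoleucine. CYP94B2 and CYP94B3 were also marked by H3K27me3 over 89.7% and 67.5% of the gene, whereas CYP94B1 had no mark. CYP94C1, which oxidises the product further, was in none of the lists. Among the other jasmonate genes, 6 of 10 were marked, or 60.0%, against 27.3% of all genes, and 1, ILL6, which splits jasmonate conjugates, had FIE as well. AOC1, AOC2 and AOC3 had the same H3K27me3 fold, 3.34, so they may not be separate observations. At AOC3 and JAR1 no part of the gene was covered.

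Both cytokinin hydroxylases, CYP735A1 and CYP735A2, which make trans-zeatin forms, were in the FIE and H3K27me3 lists. At CYP735A1 the FIE region 5:15396191-15396331 had a fold of 3.98 and contained the AZF1 region 5:15396197-15396314 with a fold of 3.20, inside a 9551-bp H3K27me3 region that covered 96.9% of the gene. CYP735A2 had a FIE fold of 4.78 and was covered in full by a 9790-bp H3K27me3 region with a fold of 2.77. Of the 18 other cytokinin genes, 7 were marked, or 38.9%, against 27.3% of all genes. FIE was at 2 of the 18, or 11.1%, near the 9.33% of all genes, both of them LOG genes of cytokinin activation: LOG2 with a FIE fold of 5.25 and LOG7 with 4.21.

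For gibberellins, CYP714A1 and CYP714A2, which deactivate the hormone or its precursors, lie side by side. At CYP714A1 the FIE region 5:8570026-8570181, with a fold of 4.51, overlapped the BPC1 region 5:8570048-8570187, with a fold of 2.43. The AZF1 region of CYP714A1, 5:8568244-8568346, had a fold of 2.79 and did not overlap them, so the gene's presence in all 4 lists came from separate places in 1 H3K27me3 region of 3346 bp with a fold of 2.92. That H3K27me3 region covered 98.2% of CYP714A1 and reached the window of CYP714A2 without covering any of the gene. CYP88A3, which oxidises kaurenoic acid in gibberellin synthesis, had an AZF1 region alone, with a fold of 2.88.

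For brassinosteroids, CYP72C1, which lowers the level of the hormone, had a FIE region with a fold of 4.93 and no mark. CYP90D1, of brassinosteroid synthesis, was marked over 47.3% of the gene with a fold of 2.90, and CYP724A1 was in none of the lists. Of 8 other brassinosteroid genes, 2 had FIE, or 25.0%, against 9.33% of all genes. The marked genes were also 2, or 25.0%, near the 27.3% of all genes. BIN2, the kinase that represses the signal, was in all 4 lists, and its fold was 5.04 for FIE. For strigolactones, CYP711A1 (MAX1) had an H3K27me3 region with a fold of 3.01 beside the gene and none on it. CYP722A1, which hydroxylates a strigolactone precursor, had a FIE fold of 4.76 and an H3K27me3 region over 52.2% of its length.

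Of the 15 members known from glucosinolates, oximes and camalexin, 9 were marked, or 60.0%, against 27.3% of all genes, and 4 had FIE, or 26.7%, against 9.33%. CYP79B2 and CYP79B3, which turn tryptophan into indole-3-acetaldoxime, had 3 FIE regions each. The highest FIE fold was 5.47 at CYP79B2 and 5.97 at CYP79B3. At CYP79B2 the FIE region 4:18526656-18526887 contained its BPC1 region 4:18526716-18526867, with a BPC1 fold of 3.59. CYP79F1, which acts on chain-elongated methionine, had a FIE fold of 4.90. It shared a 12766-bp H3K27me3 region with its neighbour CYP79F2, which has no FIE summit. CYP81F3, of indole glucosinolate modification, had a FIE fold of 5.97. Close relatives differed: CYP83A1 was marked over the whole gene and CYP83B1 was in none of the lists, and of the camalexin pair CYP71A13 was marked over the whole gene and CYP71A12 was not. CYP79A2, CYP81F2, CYP71B6 and CYP91A2 (CYP81F1) were also in none of the lists. Of 12 other genes of this pathway, 5 were marked, or 41.7%, among them the regulators MYB28 and MYB29, covered in full with folds of 3.22 and 3.05.

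Triterpenoid genes were marked almost throughout: 14 of 15 members met H3K27me3, or 93.3%, against 27.3% of all genes, and only CYP708A1 was in none of the lists. For 2 of the 14, CYP702A5 and CYP702A6, the region lay beside the gene and covered none of it. FIE was assigned to 2 of the 15, or 13.3%, against 9.33%. The thalianol pathway genes CYP705A5 and CYP708A2 had H3K27me3 folds of 3.40 and 3.52, and their scaffold enzyme THAS1 was covered in full with a fold of 3.50. The marneral pathway genes CYP705A12 and CYP71A16 were covered in full, with folds of 3.13 and 3.02, and their scaffold enzyme MRN1 was covered in full and had a FIE fold of 4.78. No FIE summit was assigned to the 4 P450 genes of those pathways. CYP705A1, which cleaves arabidiol, and its neighbour CYP705A2 lay in the highest H3K27me3 region at any member, 17748 bp at 4:8750504-8768251 with a fold of 3.87, at 98.8% of the list. The arabidiol synthase PEN1 lay in the same region and had a FIE fold of 3.66. CYP705A2 had 3 FIE regions with a highest fold of 4.42, and its AZF1 region 4:8763018-8763155, with a fold of 3.13, fell inside the FIE region 4:8762863-8763157. CYP716A1, which oxidises triterpene scaffolds, and CYP716A2 were covered in full with folds of 2.76 and 2.67. These genes were picked as a list with the data known and several share a region, so 14 of 15 is a description of these loci. From the CYP705A subfamily the list takes only CYP705A1, CYP705A2, CYP705A5 and CYP705A12, all marked. Of all 24 CYP705A genes, 7 were marked. Of 12 other triterpenoid and sterol genes, 8 were marked, or 66.7%, 2 of them also with FIE, and CAMS1, BAS, SMT1 and CAS1 were in none of the lists. Among the 8, PEN6 and LUP2 had no part of the gene covered. The region at PEN6 was that of CYP708A3, and LUP1 and LUP2 had the same fold, 3.19, so these may not be separate observations.

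Genes of surface lipids were marked in 5 of 15 cases, or 33.3%, near the 27.3% of all genes, and 1 of 15 had FIE, or 6.67%, against 9.33%. CYP86A8 (LACERATA), a fatty acid hydroxylase of the cuticle, had the highest FIE value of any member: the region 2:18913970-18914829 had a fold of 7.58, at 91.4% of the FIE list. A BPC1 region at 2:18914562-18914787, with a fold of 3.49, fell inside it. H3K27me3 covered 31.0% of CYP86A8 with a fold of 3.16. The suberin hydroxylase CYP86A1 was covered in full with a fold of 3.22. CYP86B1, also of suberin, was covered over 61.6% by a region with a fold of 2.68, and a region with a fold of 3.22 lay 876 bp away. CYP96A15, which makes wax alcohols and ketones, was covered in full with a fold of 3.17. The pollen wall genes CYP703A2 and CYP704B1 and the cutin genes CYP86A2, CYP86A4, CYP86A7, CYP77A4 and CYP77A6 were in none of the lists. Among 14 other cutin and suberin genes, 8 were marked, or 57.1%, and 5 had FIE, or 35.7%, with GPAT8, a cutin acyltransferase, at a FIE fold of 7.48 and a BPC1 fold of 3.14.

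The remaining roles had few assignments. Of 5 phenylpropanoid members, CYP98A3, which hydroxylates coumaroyl esters on the way to lignin, had an AZF1 summit 991 bp away with a fold of 2.99. CYP82C4, of the iron-mobilising coumarins, was marked over the whole gene. CYP98A8, CYP98A9 and CYP84A4 were in none of the lists. Outside the members, 3 phenylpropanoid and flavonoid genes have a P450 name only as a synonym, C4H, FAH1 and TT7, and all had FIE. Of 6 monoterpenoid and homoterpene members, CYP82G1, the homoterpene enzyme, was marked in full. CYP71B31, which oxidises linalool, was covered over 99.9% by a 4254-bp region with an H3K27me3 fold of 3.65, which lay 490 bp from CYP71B5 and came next after that of CYP705A1 among regions of at least 1 kb at members. Its AZF1 fold was 2.44. The linalool-oxidising genes CYP76C1 to CYP76C4 were in none of the lists. Of 5 sterol genes, only CYP710A4 was marked, and CYP51G1, the sterol demethylase, was not. Of 2 carotenoid hydroxylases, CYP97B3 was marked over 5.76% of the gene and CYP97A3 was not marked. Among 8 electron donors of P450 enzymes, the reductase ATR2 had an AZF1 fold of 2.45, CB5-B had AZF1 and BPC1, and CB5-C alone was marked.

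Over the 94 pathway genes set beside the members, 40 were marked, or 42.6%, and 13 had FIE, or 13.8%. AZF1 was assigned to 8, or 8.51%, and BPC1 to 9, or 9.57%. All genes had 9.33% with FIE, 9.88% with AZF1 and 5.87% with BPC1. The BPC1 share of these pathway genes lay above that of all genes, and that of the P450 members, 4.19%, slightly below it. Each of these BPC1 shares rests on 9 genes. The H3K27me3 share of those other pathway genes was close to that of the P450 members, 41.9%, and above that of all genes, 27.3%. These shares are not separate observations: PEN1, BARS1, SOT16 and PEN6 were met by H3K27me3 regions that also met members. At CB5-C, LOG7, AOC3, JAR1, SOT16, PEN6 and LUP2 the mark lay beside the gene and covered none of it.

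By family, the H3K27me3 share of 13 of the 14 families with at least 5 members lay above that of all genes, several of them by little. With genes extended by 2 kb 12 of the 14 did, and likewise 12 with only regions above the median −log10 q. All 6 CYP702 and all 5 CYP82 genes were marked, and 5 of 7 in both CYP706 and CYP79. With only regions above the median −log10 q, where the share of all genes was 15.7%, CYP702 counted 3 of 6, CYP82 2 of 5, CYP79 4 of 7 and CYP706 5 of 7. The largest family, CYP71, counted 23 of 48, or 47.9%, and within it the CYP71A subfamily had 12 of 16 and CYP71B 11 of 32. CYP705 had 7 of 24, or 29.2%, and CYP81 had 5 of 16, or 31.3%, both close to the share of all genes. CYP96, with 4 of 12, and CYP78 and CYP94, with 2 of 6 each, were at 33.3%, also near that share. CYP72 had 1 of 9, or 11.1%, the only family of that size below the share of all genes. By clan, the deeper branches of the P450 tree, CYP71 had 60 of 141 members marked, CYP86 10 of 31, CYP72 5 of 18 and CYP85 12 of 16. Of the 39 families, 14 with 21 members in all had no marked member. CYP91A2 is among those members, counted apart from CYP81 and in no clan.

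**Figure D3:**
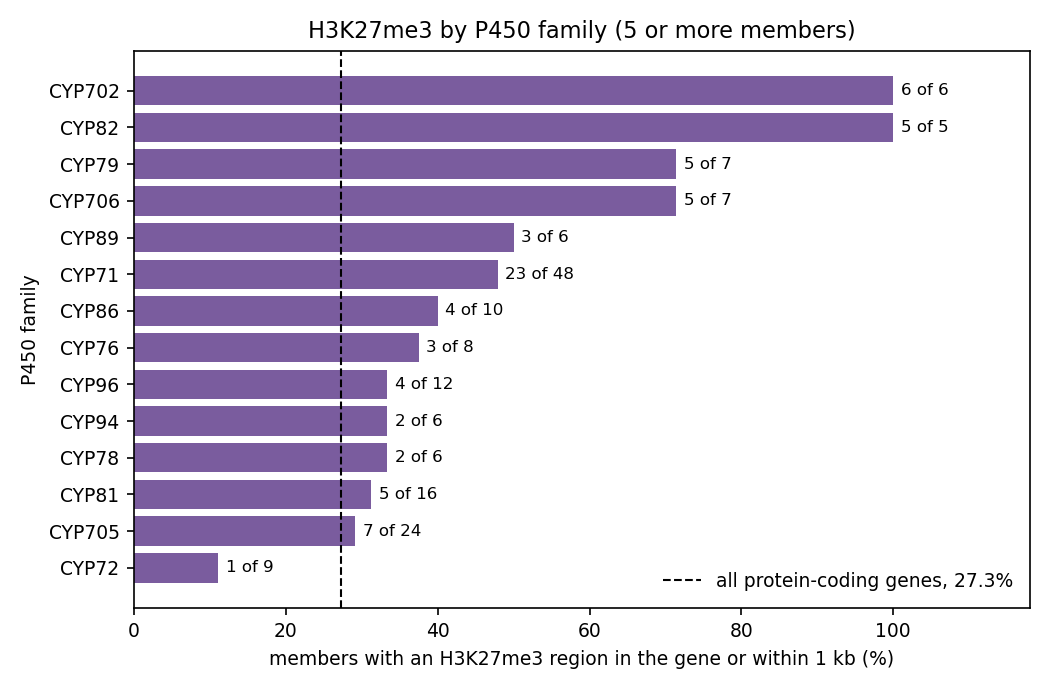
Share of members with an H3K27me3 region in the gene or within 1 kb, in percent, for the 14 P450 families with at least 5 members; the numbers beside the bars are marked members of all members, and the dashed line is the share of all protein-coding genes, 27.3%. CYP702 and CYP82 are at 100% and CYP72, at 11.1%, is the only bar left of the line.

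Where a P450 gene was marked, the mark usually covered it. The median marked member had 100% of its length in H3K27me3 regions, against 84.1% for all marked genes. At least 50% was covered in 73 of 90 marked members, or 81.1%, against 57.1% of all marked genes, and 49, or 54.4%, were covered in full, against 43.1%. Median gene length was 2052 bp for the members and 2078 bp for all genes. For 6 of the 90 marked members the region lay in the window and not on the gene: CYP86C3, CYP711A1, CYP71B4, CYP702A5, CYP702A6 and CYP714A2. Among all 7492 marked genes this held for 2199, a larger share. All 5 CYP82 genes were covered in full, and so were all 7 marked CYP705 genes, while 4 of the 6 CYP702 genes had the mark on the gene itself.

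**Figure D4:**
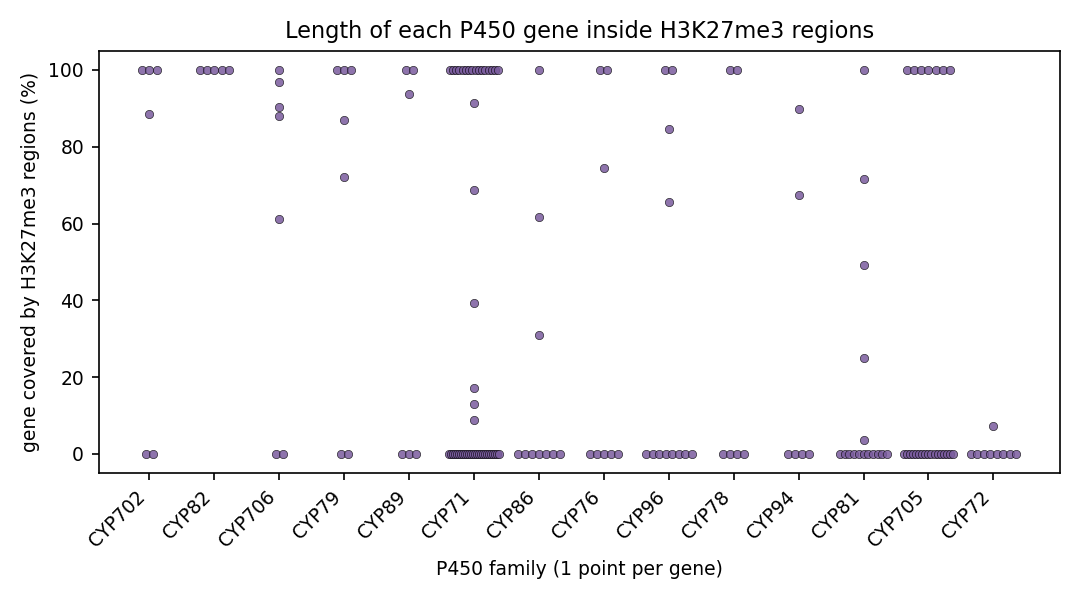
Length of each gene inside H3K27me3 regions, in percent, with 1 point per gene for the 14 families with at least 5 members, ordered from the highest to the lowest share of marked members. Of the 170 genes, 99 sit at 0%, 43 at 100% and 28 in between.

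Many members are neighbours: 125 lie in 37 arrays, taken as runs of members with at most 1 other coding gene between them, and 90 stand alone. H3K27me3 met 53 of the array genes, or 42.4%, and 37 of the single genes, or 41.1%, against 27.3% of all genes. FIE was assigned to 10 of the array genes, or 8.00%, near the 9.33% of all genes. It was assigned to 14 of the single genes, or 15.6%. All members were marked in 12 arrays, some in 11 and none in 14. For the 16 arrays of at least 3 members, these counts were 2, 9 and 5. The 90 marked members were reached by 78 regions, of which 17 met 2 members and 2 met at least 3, so neighbouring members are not separate observations of the mark.

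The largest fully marked array ran from CYP702A2 to CYP702A6 on chromosome 4. Its 8 members, 4 of CYP702A and 4 of CYP705A, were all marked, by 6 H3K27me3 regions. On chromosome 3, 5 of 6 genes of the array from CYP71A26 to CYP71A21 were marked, all of them met by a single region of 9496 bp at 3:17881861-17891356 with a fold of 3.47, and the end gene CYP71A26 lay 1193 bp from the nearest region. The long CYP705A arrays of chromosome 3 had no region of any list. None of the 7 genes from CYP705A15 to CYP705A23 and none of the 4 from CYP705A28 to CYP705A33 was marked, so that the CYP705A genes of chromosome 3 counted 0 of 11 and those of the chromosome 4 array 4 of 4. The other marked CYP705A genes were CYP705A5 and CYP705A12, each in a fully marked pair with a P450 gene of another family, and CYP705A24, which stands alone. CYP76C showed the same contrast: CYP76C5 and CYP76C6 on chromosome 1 lay in 1 region of 20854 bp, and the 4 CYP76C genes of the chromosome 2 array had none. Among 8 neighbouring CYP72A genes only CYP72A14 was marked, over 7.30% of its length, and it had a FIE fold of 5.40. Near-identical neighbours can share sequence reads, and the sources used here do not state how reads with several matches were handled. Their part in the unmarked arrays was not tested.

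**Figure D5:**
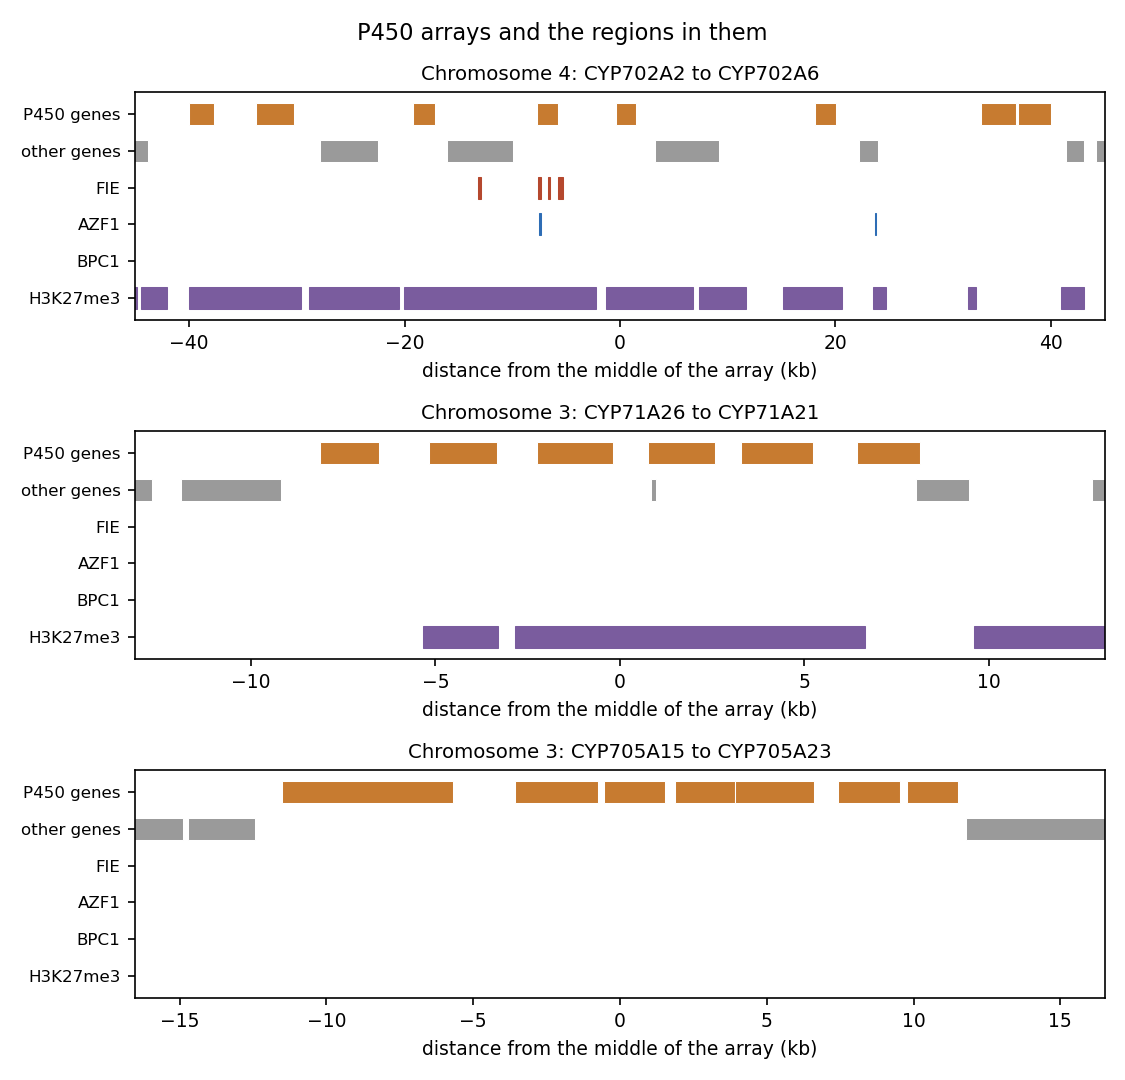
Maps of 3 P450 arrays, with distance from the middle of each array in kb on the horizontal axis and, from top to bottom, P450 genes, other coding genes and the FIE, AZF1, BPC1 and H3K27me3 regions. All 8 members of the chromosome 4 array are in or near H3K27me3 regions, 5 of the 6 members of the CYP71A array are, and the CYP705A array of chromosome 3 holds no region of any list.

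The regions at members had median heights near those of their lists. The 35 FIE regions at members had a median fold of 4.90, against 4.70 for all FIE regions, and ranged between 3.58 and 7.58. Of these, 24 lay above the median of the FIE list. Above the median of their own list lay 5 of 12 AZF1, 4 of 8 BPC1 and 39 of 78 H3K27me3 regions. The 12 AZF1 regions had a median of 2.89, against 2.92 for the whole list, and the 8 BPC1 regions 3.04 against 2.94. The highest AZF1 value of any member was a fold of 3.71 at CYP71B7, which was in no other list. H3K27me3 regions at members had a median fold of 2.98, the same as in the whole list to that precision, and a median width of 3614 bp, against 2980.5 bp. The median width of the FIE regions at members was 326 bp, against 267 bp in the list as a whole. Of the 35, 28 overlapped an H3K27me3 region, or 80.0%, against 49.7% of all FIE regions. The latter share also counts FIE regions whose summit had no protein-coding gene within 1 kb, so it is not a like reference. Counted by gene, the gap was narrower: 79.2% of the FIE members were marked, against 66.25% of all FIE genes.

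Summits at members tended to lie inside the gene. Of 37 pairs of a FIE summit and a member, 30 had the summit inside the gene, whereas 59.1% of all such pairs did. The count was 11 of 12 for AZF1, against 64.0%, and 7 of 9 for BPC1, against 62.6%. The gene table has no strand, so summits could not be placed before or after the start of transcription. All 6 members with both FIE and BPC1 had overlapping regions of the pair, as did 92.6% of all such genes. Of the 4 members with both FIE and AZF1, CYP705A2 and CYP735A1 had overlapping regions, and CYP708A3, a relative of thalianol hydroxylase, and CYP714A1 did not, where 82.7% of all such genes did. At CYP708A3 the FIE fold was 3.92 and the AZF1 fold 2.89. CYP81H1 and its neighbour CYP81D5 were assigned through the same FIE and BPC1 regions, whose summits lay in CYP81H1, with folds of 3.83 and 2.57. CYP71B3 was assigned through a FIE region in its neighbour CYP71B23 with a fold of 4.78. The FIE members not named so far were CYP77B1, with 3 regions and a highest fold of 6.69, and CYP705A13, with a fold of 4.94 and no H3K27me3. Among members without FIE, CYP79C1 had AZF1, BPC1 and H3K27me3 with folds of 3.20, 2.80 and 3.31. CYP706A3 had BPC1 and H3K27me3 with folds of 3.14 and 3.18. AZF1 was at CYP71B32 and CYP82C3 with H3K27me3, with AZF1 folds of 2.54 and 2.60, and at CYP81D8 alone, with a fold of 2.36.

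The bound of 1 kb left few members close to it. Just inside lay the FIE summits of CYP81D5, at 602 bp, and CYP71B3, at 689 bp, the AZF1 summit of CYP98A3, at 991 bp, and the BPC1 summits of CYP81D5, at 634 bp, and CYP79C1, at 739 bp. Just outside, CYP86A1 had a FIE summit at 1054 bp, an AZF1 summit at 1058 bp and a BPC1 summit at 1050 bp, so this marked suberin gene missed all 3 protein lists by a small distance. Next were CYP71B21 for FIE, at 1347 bp, CYP94B1 for AZF1, at 1450 bp, and CYP81D7 for BPC1, at 1675 bp. For H3K27me3 the members nearest the bound were CYP86C3, at 884 bp, and CYP702A6, at 916 bp, inside it, and CYP96A5, at 1102 bp, and CYP71A26, at 1193 bp, outside.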

How the data were processed

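The deposited files are 4 region lists of ChIP-seq, 1 per protein or mark, with no replicate columns; they were taken as pooled over replicates. MACS2 2.1.1.20160309, Bowtie2 and bedtools were used on build TAIR10, per the submitters' processing notes; their settings were not given in the sources used here. Per the layout of the deposited files, each region has a fold enrichment over control (a ratio), a −log10 q-value and a score (10 times that value), and narrow regions a summit offset; the −log10 p column was not used. The lowest −log10 q in the authors' lists is 10. Depth is unknown.

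Coordinates are 1-based on TAIR10. Genes came from a RefSeq table of TAIR10.1, taken to number the nuclear chromosomes alike; it has no strand and no sequence was used, so planned promoter and protein steps were not run and no gene coordinate is printed. Regions were assigned to genes with Python 3.11.15, pandas 2.3.3 and NumPy 2.4.6, in code checked against an exhaustive search on simulated data. Ranks are percentiles of fold within a list. Percentages describe shares; no test was run. The members, role and pathway lists were chosen with earlier results of these data known. Named by rule were members in all 4 lists, all FIE members, the 5 highest per list, the role genes, members nearest the 1 kb bound and families of at least 5. Other windows (0.5 and 2 kb, gene only), any overlap, regions above the median −log10 q, and shared regions counted once were tried as alternatives. A gene with a P450 name only as a synonym is not a member.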

Additional observations from a re-analysis of the deposited data

How the results depend on the processing

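Of 63 counts recomputed under other settings, 53 stayed within 1.5 times the value reported and 0 reversed. Any overlap of a narrow region cannot change the H3K27me3 count or the family count, so these were bound to stay the same there. With genes extended by 2 kb, AZF1 met 20 members and all 4 lists met 2. With only regions above the median −log10 q, FIE kept 12 members, AZF1 3, BPC1 3, FIE with H3K27me3 7 and all 4 lists 0. By family, H3K27me3 counts moved by over 1.5 times with only those regions in CYP702 (3 of 6), CYP82 (2 of 5), CYP78 (1 of 6) and CYP94 (0 of 6), and at 2 kb in CYP78 (4 of 6). With any overlap of a narrow region, all 4 lists met 2. Among the 90 members that stand alone, a setting chosen after seeing the data, FIE met 14 and H3K27me3 37. The H3K27me3 share of the members was above that of all genes in all 9 settings (27.9% to 47.9%, against 15.6% to 32.2%). These settings count any overlap of a narrow region, which leaves the H3K27me3 assignment as it was. The FIE share was above that of all genes in all 8 settings (5.58% to 15.6%, against 4.74% to 12.9%), and the AZF1 and BPC1 shares in 0 of 7 each. Counting a shared region once gives no value for members in none of the lists. No paired analysis was possible because the lists hold no value per replicate. The lists do not show which replicates carried a region, nor regions under the authors' limit, so a member in none of them is not shown to be unbound.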

Other observations

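The RefSeq table holds 15 coding genes that have a P450 name only as a synonym, and which the rule leaves out. FIE was assigned to 5 of them, or 33.3%, against 9.33% of all genes, and H3K27me3 to 3, or 20.0%, against 27.3%. C4H (CYP73A5), the cinnamate hydroxylase at the entry to phenylpropanoids, had FIE, AZF1 and BPC1 with folds of 3.66, 2.99 and 3.03 and no H3K27me3. FAH1 (CYP84A1), the ferulate hydroxylase, had a FIE fold of 4.51 and a BPC1 fold of 2.96, and TT7 (CYP75B1), the flavonoid hydroxylase, had a FIE fold of 4.78, also without H3K27me3. These 3 genes of 1 pathway differ from most FIE members, 19 of 24 of which were marked. BAS1, which inactivates brassinosteroids, had a FIE fold of 3.98 and beside the gene an H3K27me3 fold of 3.12, and HPL1, a hydroperoxide lyase of the jasmonate branch point, 5.73 and 2.77. PAD3, the last enzyme of camalexin synthesis, had an H3K27me3 fold of 3.20 beside the gene. The brassinosteroid synthesis genes CPD, DWF4, ROT3, BR6OX1 and BR6OX2 were in none of the lists. Of 6 genes typed as P450 pseudogenes, 0 were in any list, where 63.1% of all coding genes were in none. CYP71B30P, typed as protein-coding with a symbol outside the rule, was met by H3K27me3 regions with folds of 3.39 and 3.65.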
